A study of Homo sapiens with 24 samples.

Results

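The keratin genes described here were 9 of the 11 keratin genes in a table of 14585 genes measured in 24 RNA-sequencing libraries. They were chosen by name, as the rows whose Ensembl identifier maps to KRT7, KRT8, KRT10, KRT15, KRT18, KRT19, KRT80, KRT81 or KRT86, and a gene was tested in a cell line when its mean over the 12 libraries of that line was above 5 counts. All 9 were tested in A549 cells, among 13633 genes, and 5 of them (KRT8, KRT10, KRT18, KRT19 and KRT80) in Huh7 cells, among 13875 genes. KRT7, KRT15, KRT81 and KRT86 stayed at or below the minimum in Huh7.

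A549 is a human lung adenocarcinoma line and Huh7 a human hepatocellular carcinoma line, both labelled wild type. The paper states that A549 has wild-type p53 and that Huh7 carries mutant p53, so the lines do not share p53 status. Cells of each line were left as control or received an extract of 1 of 3 medicinal herbs, Pulsatilla chinensis, Bupleurum chinense or Polyporus umbellatus, with 3 libraries per group. The extracts were made with ethanol, freeze-dried and taken up in DMSO, and neither the dose and time for the sequenced cells nor a DMSO treatment of the controls is given in the sources used here. Separate cultures are not stated for the replicates, so every p-value measures the spread between these libraries, which may be technical, and the 3 herbs of a line were compared with the same 3 control libraries.

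Keratins are the intermediate filament proteins of epithelial cells. A type I keratin pairs with a type II keratin to form each filament, and the partners stabilise each other as proteins. KRT8 (type II) and KRT18 (type I) form the pair of simple epithelia, the only major pair of hepatocytes. KRT7 (type II) and KRT19 (type I) are added in ducts and airways, and KRT19 is a marker of bile duct cells in liver. KRT15 (type I) belongs to basal cells of stratified epithelium, KRT10 (type I) to the upper layers of epidermis, and KRT80 (type II) is an epithelial keratin linked to cell junctions. KRT81 and KRT86 (type II) are hair keratins that also appear in some carcinomas.

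The members fall into the usual keratin clusters of the genome. In the GENCODE annotation of GRCh38, the type II genes KRT7, KRT8, KRT80, KRT81 and KRT86 lie on chromosome 12 with 1 type I gene, KRT18. KRT8 (chr12:52897187-52949954, minus strand, 8 exons) and KRT18 (chr12:52948871-52952906, plus strand, 7 exons) share 525 exonic bases on opposite strands. KRT81 (chr12:52285913-52291534, minus strand, 9 exons) lies inside the span of KRT86 (chr12:52249300-52309163, plus strand, 11 exons), with no shared exonic base. The remaining type II genes are KRT7 (chr12:52232520-52252186, plus strand, 9 exons) and KRT80 (chr12:52168996-52192014, minus strand, 9 exons). The type I genes KRT10 (chr17:40818117-40822614, minus strand, 8 exons), KRT15 (chr17:41513745-41522529, minus strand, 8 exons) and KRT19 (chr17:41523617-41528308, minus strand, 6 exons) lie on chromosome 17.

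KRT81 and KRT86 are near copies of each other, with 93.6% of 1454 aligned coding bases identical, which limits how reads can be divided between them. The limit was measured for every member as the share of 31-base words of its transcript that also occur, on either strand, in transcripts of other genes. KRT81 shared 49.9% of its words with other protein-coding genes, 820 of 1899 with KRT86 alone, and KRT86 shared 39.6%. KRT18 shared 29.7%, of which 345 words lay on KRT8. KRT8 and KRT18 also have many processed pseudogenes, which held 58.6% and 66.9% of their words. For KRT7, KRT10, KRT15, KRT19 and KRT80, between 88.6% (KRT19) and 99.9% (KRT10) of the words occurred in no other gene. The plot of shared words shows the contrast. The division of counts between KRT81 and KRT86, and between KRT8, KRT18 and their pseudogenes, is therefore uncertain.

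**Figure D1:**
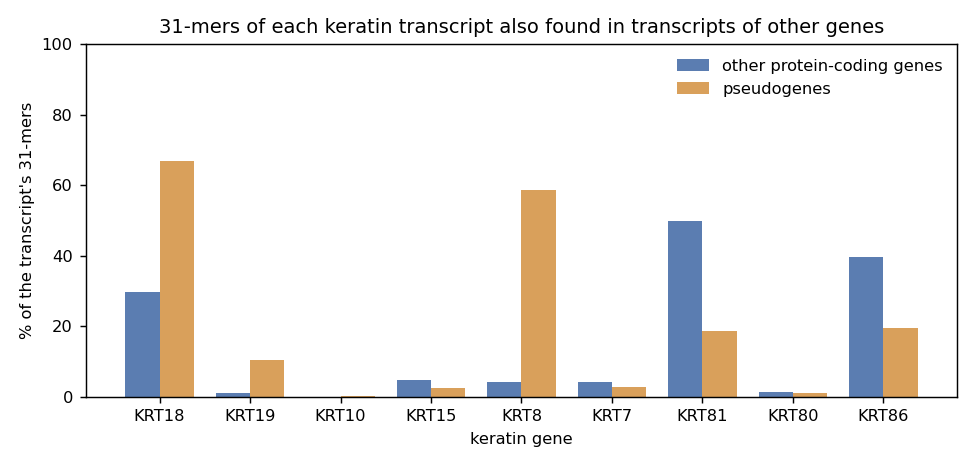
Percentage of the 31-base words of each keratin transcript that also occur in transcripts of other protein-coding genes (blue bars) or of pseudogenes (orange bars); type I genes stand on the left and type II genes on the right. KRT81 and KRT86 are highest for coding genes (49.9% and 39.6%), and KRT18 and KRT8 for pseudogenes (66.9% and 58.6%).

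The libraries held 6803648 to 24345364 counts, with a median of 10515131. The 9 keratins took 0.917% to 1.12% of all counts in A549 libraries and 0.245% to 0.576% in Huh7 libraries, and mitochondrial genes 1.93% to 4.37%. The 3 P. umbellatus libraries of Huh7 stood apart: the lowest correlation with a library of the same group was 0.9546, 0.9481 and 0.9481 for replicates 1, 2 and 3, against 0.9709 to 0.9854 in the 21 libraries of the other groups. Replicate 2 of that group had the lowest keratin share (0.245%). Huh7 libraries expressed hepatocyte markers (summed level 12618 to 23523 CPM, 8 of 8 genes above the minimum, against 49.7 to 133 CPM in A549), with albumin at 2751 to 4879 CPM. Of 7 lung carcinoma markers, 3 were in the table, and their sum was 5261 to 7354 CPM in A549 against 991 to 1504 CPM in Huh7. That sum came almost wholly from ALDH1A1 (2804 to 5283 CPM in A549, 986 to 1499 CPM in Huh7) and, in A549, ALDH3A1 (1306 to 3853 CPM). The lung-defining gene SFTPB was low in both lines and not higher in A549 (1.05 to 2.75 CPM, against 2.12 to 5.16 CPM in Huh7). NKX2-1, SFTPC, SFTPA1, NAPSA, KRT5 and KRT14 had no row. Fibroblast markers summed to at most 11.4 CPM in any library and leukocyte markers to at most 43 CPM. PECAM1, the only endothelial marker in the table, was at 1.02 to 3.1 CPM in A549 and 31.8 to 55.9 CPM in Huh7. Levels below are CPM, the counts of a gene relative to the scaled library total (trimmed-mean scaling, TMM, across all libraries), or CPM per kb of transcript where genes are compared.

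In control A549 cells, KRT8 was the most abundant keratin at 2078 ± 138 CPM per kb (SD, n = 3). KRT81 followed at 1663 ± 96.8 and KRT18 at 1644 ± 60 CPM per kb, and the libraries of these neighbours overlapped. KRT7 stood at 1025 ± 22.3 CPM per kb. A drop of 24.3-fold separated these 4 genes from KRT80 at 42.2 ± 3.76 CPM per kb. Then came KRT10 at 20.8 ± 1.3, KRT19 at 9.73 ± 2.13, KRT86 at 6.1 ± 0.682 and KRT15 at 0.367 ± 0.438 CPM per kb, with no overlap between neighbours. A549 thus carried 4 abundant keratins, of which 1 was a hair keratin, and by counts KRT8 made up 33.3%, KRT81 28.8%, KRT18 20.9% and KRT7 15% of the keratin total.

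Control Huh7 cells had 2 abundant keratins, the simple epithelial pair. KRT8 stood at 1558 ± 43.2 CPM per kb and KRT18 at 938 ± 31.1 CPM per kb, and the 2 genes made up 66.9% and 31.9% of keratin counts. KRT19 was 50.7-fold below KRT18, at 18.5 ± 1.22 CPM per kb. KRT10 stood at 9.4 ± 0.131 and KRT80 at 0.225 ± 0.0311 CPM per kb, and no neighbours among these 5 genes overlapped. KRT15 had 0, 1 and 2 counts in the control libraries. KRT7, KRT81 and KRT86 had 0 counts in all 3 control libraries, which allows up to 3 counts per library, or 0.155 CPM, counting error only. Against that floor KRT7 was at least 10769-fold, KRT81 at least 20745-fold and KRT86 at least 88.7-fold higher in control A549 than in control Huh7. These 3 genes passed the minimum in A549 alone, so a higher level there follows from how they were kept. For KRT86, how far reads of KRT81 entered its A549 counts was not tested.

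**Figure D2:**
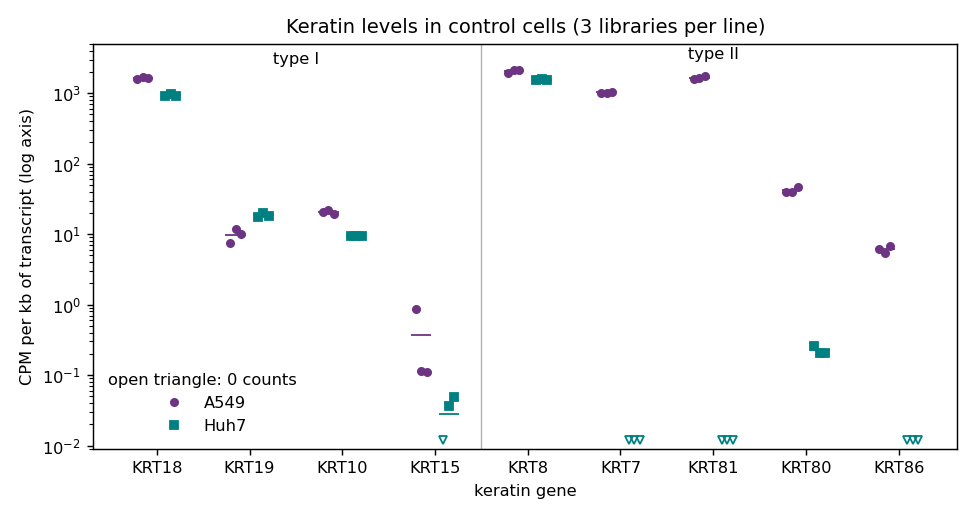
Level of each keratin in the control libraries of A549 (purple circles) and Huh7 (teal squares), in CPM per kb of transcript on a log axis; horizontal lines are means of 3 libraries and open triangles are libraries with 0 counts. KRT8 and KRT18 lie near the top in both lines, while KRT7, KRT81 and KRT86 are at 0 in Huh7.

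All 5 keratins tested in both lines differed between the control groups, 4 higher and 1 lower in A549, where 33.8% of 12924 genes tested were higher and 34.9% lower. KRT80 differed most, with a log2 difference of 7.33 ± 0.19 (SE; edgeR adjusted p = 7.85e-19). KRT10 was higher by 1.16 ± 0.16 on the log2 scale (edgeR adjusted p = 1.19e-06), KRT18 by 0.83 ± 0.07 (edgeR adjusted p = 1.26e-09) and KRT8 by 0.44 ± 0.13 (edgeR adjusted p = 0.00381). KRT19, the duct keratin, was the 1 member lower in A549, with a log2 difference of -0.89 ± 0.13 (edgeR adjusted p = 4.18e-06). Line and any difference in culture or library preparation between the lines cannot be told apart.

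In A549 the keratins split into a group that rose, a group that fell and a group that was not called, and the 3 herbs gave similar values for each gene. P. chinensis raised 2 and lowered 2 of the 9 keratins, where 15.8% of all genes tested were higher and 17.1% lower. B. chinense raised 2 and lowered 3 (13.1% higher and 15.0% lower among all genes). P. umbellatus raised 2 and lowered 4 (13.4% higher and 14.8% lower). The B. chinense count of 5 was 3 without control replicate 3 or B. chinense replicate 2 or 3. The median log2 fold change of the members was 0.00, -0.07 and -0.05 in the same order, beside 0.01, 0.00 and -0.01 over all genes. The sum of the members went from 11138 CPM in control to 9933, 9821 and 9794 CPM.

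KRT19 rose most clearly in A549. Its levels were 10.3, 16.2 and 14.1 CPM in control. They were 44, 41.8 and 45.5 CPM with P. chinensis, 40, 40.7 and 37.8 CPM for B. chinense, and 43.2, 37.5 and 38.4 CPM with P. umbellatus. Each treated library lay above every control library. The share of all genes separated in this way was not computed, for this gene or for the keratins below, in either line. The log2 fold change was 1.64 ± 0.12 with P. chinensis (3.12-fold; edgeR adjusted p = 1.48e-07). It was 1.49 ± 0.12 with B. chinense (edgeR adjusted p = 8.23e-07) and 1.47 ± 0.12 with P. umbellatus (edgeR adjusted p = 7.54e-07). Relative to KRT18, the abundant type I keratin, KRT19 per kb went from 0.59 ± 0.112% in control to 2.25 ± 0.193%, 2.04 ± 0.104% and 2.06 ± 0.0374%, so it remained a minor keratin.

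KRT15, the basal cell keratin, rose from near the detection limit. The other basal marker in the table, TP63, fell with each herb (log2 fold changes -1.15, -1.28 and -1.34), and KRT5 and KRT14 had no row. Control libraries held 12, 2 and 2 counts. P. chinensis libraries held 35, 18 and 26, B. chinense libraries 9, 25 and 23, and P. umbellatus libraries 47, 38 and 16 counts. In CPM the P. chinensis and P. umbellatus libraries all lay above control, while B. chinense replicate 1 (1.02 CPM) lay below control replicate 1 (1.49 CPM). The log2 fold changes were 1.89 ± 0.58 with P. chinensis (edgeR adjusted p = 0.0219), 1.66 ± 0.59 with B. chinense (edgeR adjusted p = 0.0478) and 1.90 ± 0.58 with P. umbellatus (edgeR adjusted p = 0.0229). Each call was lost on leaving out control replicate 2 or 3 (edgeR adjusted p = 0.0857 to 0.0867 with P. chinensis, 0.158 to 0.159 with B. chinense and 0.0905 to 0.0908 with P. umbellatus). It was also lost without P. chinensis replicate 1 (0.0845) or P. umbellatus replicate 2 (0.0683) for the comparison that holds that library. For B. chinense it was lost without replicate 2 or 3 of that herb (0.122 and 0.138), replicate 2 or 3 of P. chinensis (0.052 and 0.0576) or any replicate of P. umbellatus (0.0548 to 0.0585), by edgeR's adjusted p throughout.

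KRT81, the abundant hair keratin, fell with every herb in A549. Its levels were 3026, 3196 and 3400 CPM in control. They were 2454, 2530 and 2168 CPM with P. chinensis, 2413, 2387 and 2295 CPM for B. chinense, and 2533, 2514 and 2432 CPM with P. umbellatus. All treated libraries lay below all control libraries. The log2 fold change was -0.46 ± 0.05 with P. chinensis (0.727 of control; edgeR adjusted p = 6.23e-06), -0.48 ± 0.05 with B. chinense (edgeR adjusted p = 6.86e-06) and -0.43 ± 0.05 with P. umbellatus (edgeR adjusted p = 1.85e-05). Per kb, KRT81 went from 80.1 ± 2.9% of KRT8 in control to 61.6 ± 1.34%, 61.7 ± 0.56% and 68 ± 1.98%.

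KRT86, the near copy of KRT81, had few counts. Its levels were 13.9, 12.1 and 15.1 CPM in control, 11.1, 11.2 and 10.7 CPM with P. chinensis, 11.1, 5.95 and 7.08 CPM for B. chinense, and 11.8, 8.14 and 6.49 CPM with P. umbellatus. Every treated library lay below every control library, with the widest spread in the latter 2 herbs. The fall passed the test with B. chinense (log2 fold change -0.79 ± 0.24; edgeR adjusted p = 0.0218) and P. umbellatus (-0.67 ± 0.23; edgeR adjusted p = 0.0424). With P. chinensis the value was -0.34 ± 0.23 (edgeR adjusted p = 0.282). KRT86 counts were 0.428 ± 0.044% of KRT81 counts in control and 0.463 ± 0.0265%, 0.34 ± 0.109% and 0.352 ± 0.102% with the herbs, and how far reads of KRT81 entered the KRT86 counts was not tested. The B. chinense call was lost without control replicate 1 or 3 or B. chinense replicate 2 or 3 (edgeR adjusted p = 0.0527 to 0.0998), and the P. umbellatus call without control replicate 1 or 3, any P. chinensis replicate, or P. umbellatus replicate 2 or 3 (edgeR adjusted p = 0.053 to 0.149).

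The simple epithelial pair moved less in A549. KRT18 levels were 2262, 2420 and 2288 CPM in control, 1931, 2089 and 1926 CPM with P. chinensis, 1980, 1942 and 1996 CPM for B. chinense, and 2176, 1846 and 1868 CPM with P. umbellatus. All treated libraries lay below control. The log2 fold changes were -0.26 ± 0.05 (edgeR adjusted p = 0.00194), -0.27 ± 0.05 (edgeR adjusted p = 0.0017) and -0.30 ± 0.05 (edgeR adjusted p = 0.000738) in that order.

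KRT8 levels in A549 were 3421, 3852 and 3846 CPM in control, 3609, 3800 and 3331 CPM with P. chinensis, 3637, 3543 and 3461 CPM for B. chinense, and 3548, 3323 and 3305 CPM with P. umbellatus. The treated libraries overlapped control for each herb. KRT8 fell with P. umbellatus (log2 fold change -0.19 ± 0.05; edgeR adjusted p = 0.00969). It was not called with P. chinensis (-0.08 ± 0.05; edgeR adjusted p = 0.23) or B. chinense (-0.10 ± 0.05; edgeR adjusted p = 0.147, and 0.0356 without control replicate 1). KRT18 per kb was 79.3 ± 4.19% of KRT8 in control and 70 ± 2.75%, 70.3 ± 2.24% and 73 ± 3.89% with the herbs.

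KRT7, KRT80 and KRT10 were not called with any herb in A549. KRT7, the ductal and airway type II keratin, was at 1665 ± 36.2 CPM in control and 1717 ± 65.1, 1684 ± 63 and 1678 ± 110 CPM in the 3 herb groups, ordered as above. Its log2 fold changes of 0.01, -0.02 and -0.05 each had an SE of 0.05. KRT80 was at 163 ± 14.6 CPM in control and 167 ± 10.4, 160 ± 22.2 and 170 ± 6.43 CPM with the herbs. KRT10 was at 44.5 ± 2.8 CPM in control and 45.3 ± 9.77, 43.4 ± 1.59 and 46.2 ± 0.624 CPM, with P. chinensis replicate 3 alone at 56.5 CPM. The treated and control libraries of these 3 genes overlapped in every comparison.

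**Figure D3:**
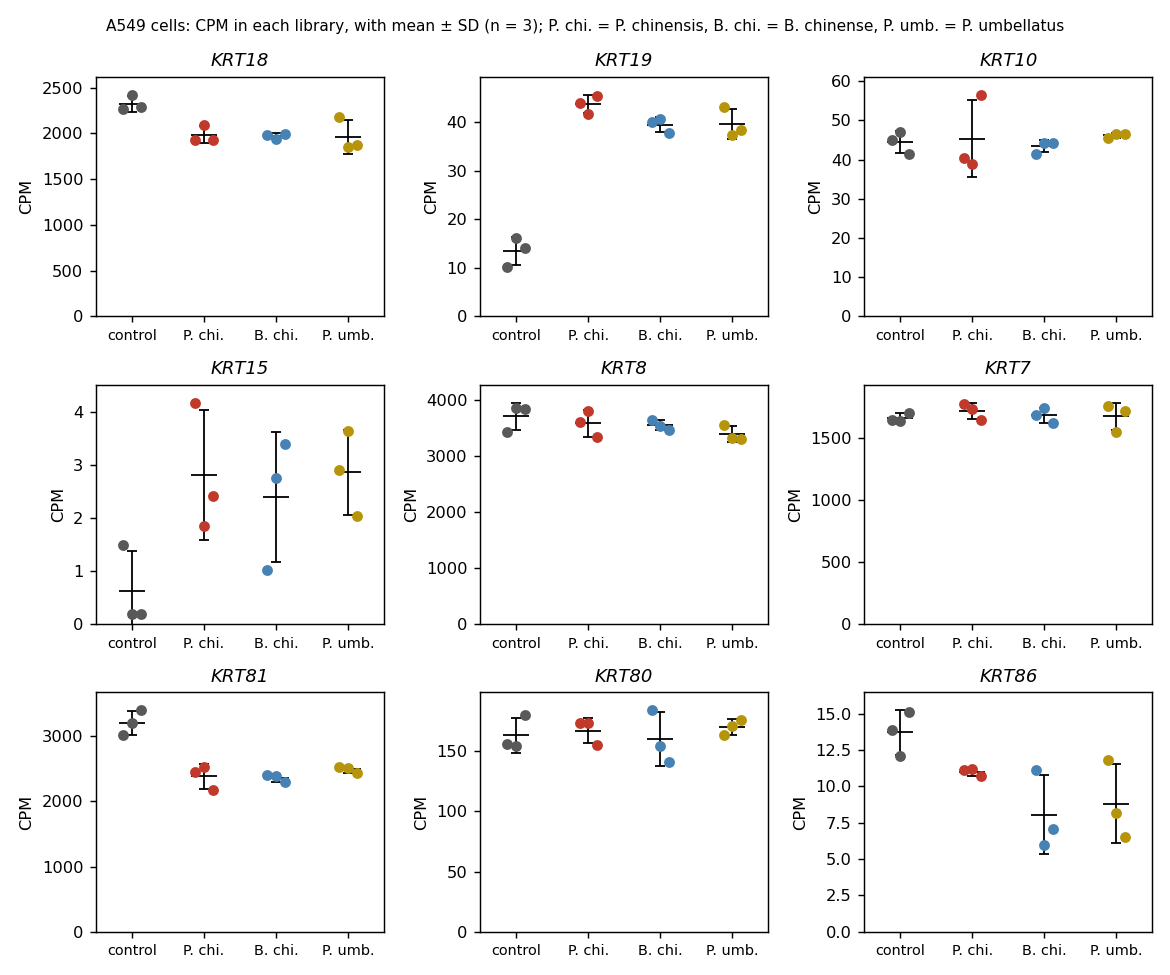
CPM of the 9 keratins in each A549 library (points) with the mean and SD of 3 libraries (black bars), for control and the 3 herbs on linear axes that start at 0. KRT19 is above control with every herb, KRT18, KRT81 and KRT86 are below it, and KRT7, KRT80 and KRT10 overlap it. How many of all genes are separated like this was not computed.

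P. chinensis was also set against the mean of the other 2 herbs, a comparison that uses no control library. In A549, edgeR called 0 of 9 keratins, and 0 passed an unadjusted p of 0.05, where 1.15% of all genes were higher and 2.42% lower. DESeq2 and limma called none of the 9 either. The log2 differences ranged from -0.01 ± 0.04 (KRT81) to 0.38 ± 0.20 (KRT86), and that of KRT19 was 0.16 ± 0.10 (edgeR adjusted p = 0.444).

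In Huh7 the calls differed between the herbs in the fit without a correction for GC content. P. chinensis raised 3 of the 5 keratins tested and lowered 0, where 10.5% of all genes were higher and 10.5% lower. B. chinense changed 0 of 5, also at an unadjusted p of 0.05, where 0.519% of genes were higher and 0.757% lower. DESeq2 and limma called none of these 5 either, while a fit of the compared groups alone called KRT8 (0.12; edgeR adjusted p = 0.043). The P. umbellatus libraries enter the main fit. B. chinense changed 177 genes in it, 911 without P. umbellatus replicate 2 and 1122 with the compared groups alone. P. umbellatus raised 1 and lowered 0 (19.3% higher and 17.8% lower among all genes), and the number changed was 3, 2 and 2 without its replicate 1, 2 or 3. With a correction for GC content and length that number was 3, and KRT18 and KRT19 were higher with P. umbellatus (values below). The median log2 fold change of the 5 was 0.62, 0.12 and -0.18 in that order, beside 0.01, 0.00 and 0.03 over all genes.

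KRT19 rose with P. chinensis in Huh7. Its levels were 24.2, 27.5 and 25.4 CPM in control, 47.7, 48.1 and 52.7 CPM with P. chinensis, 30.3, 27.6 and 27.2 CPM for B. chinense, and 22.3, 16.7 and 26.1 CPM with P. umbellatus. The P. chinensis libraries stood above all others, and the libraries of the other herbs overlapped control. The log2 fold change was 1.0 ± 0.13 with P. chinensis (edgeR adjusted p = 0.000182), 0.16 ± 0.13 with B. chinense (edgeR adjusted p = 0.717) and -0.18 ± 0.13 with P. umbellatus (edgeR adjusted p = 0.308). Against the other 2 herbs, P. chinensis was higher by 1.01 ± 0.11 (edgeR adjusted p = 0.000116).

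KRT18 was at 1307, 1376 and 1295 CPM in control, 1598, 1598 and 1721 CPM with P. chinensis, 1356, 1339 and 1267 CPM for B. chinense, and 1347, 1039 and 1195 CPM with P. umbellatus. It rose with P. chinensis, where the libraries lay above all others (log2 fold change 0.36 ± 0.08; edgeR adjusted p = 0.00821). The values were 0.01 ± 0.08 with B. chinense (edgeR adjusted p = 0.979) and -0.10 ± 0.08 with P. umbellatus (edgeR adjusted p = 0.388, and 0.0378 at -0.20 without replicate 1 of that herb). Against the other 2 herbs the difference was 0.41 ± 0.07 (edgeR adjusted p = 0.00223).

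KRT8 was at 2766, 2861 and 2708 CPM in control, 3572, 3542 and 3673 CPM with P. chinensis, 3110, 2861 and 2990 CPM for B. chinense, and 2273, 1342 and 2471 CPM with P. umbellatus. The P. chinensis libraries lay above and the P. umbellatus libraries below all control libraries, with P. umbellatus replicate 2 lowest. The B. chinense libraries also lay above control, though replicate 2 of each group was at 2861 CPM when rounded. KRT8 did not pass the test with P. chinensis (log2 fold change 0.43 ± 0.16; edgeR adjusted p = 0.0729), and passed it without P. umbellatus replicate 2 (edgeR adjusted p = 3.61e-06) or 3 (edgeR adjusted p = 0.0391), whose spread enters the same fit. At about the same fold it also passed with limma (adjusted p = 5.85e-06), with a correction for GC content and length (edgeR adjusted p = 4.85e-05) and with a fit of the compared groups alone (edgeR adjusted p = 1.64e-06). KRT8 did not pass under every other setting, and the edgeR adjusted p reached 0.18 with another library left out. With B. chinense the KRT8 log2 fold change was 0.12 ± 0.16 (edgeR adjusted p = 0.844, and 0.043 with the compared groups alone). With P. umbellatus it was -0.40 ± 0.16 (edgeR adjusted p = 0.0624), and -0.50, -0.18 and -0.55 without replicate 1, 2 or 3 of that herb (edgeR adjusted p = 0.0437, 0.0067 and 0.0132). P. chinensis was higher than the other 2 herbs by 0.57 ± 0.13 (edgeR adjusted p = 0.0106, and 0.0503 without P. chinensis replicate 3). The edgeR calls against the other 2 herbs were KRT8, KRT18 and KRT19, all higher, where 9.69% of genes were higher and 12.1% lower.

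KRT10, the epidermal keratin, rose with P. chinensis and P. umbellatus in Huh7. Its levels were 20.5, 20.1 and 19.9 CPM in control, 29.7, 29.2 and 31 CPM with P. chinensis, 21.9, 27.5 and 20.8 CPM for B. chinense, and 22.7, 42.7 and 32 CPM with P. umbellatus. All treated libraries lay above control, with P. umbellatus replicate 2 highest and B. chinense replicate 3 closest. The log2 fold change was 0.63 ± 0.18 with P. chinensis (edgeR adjusted p = 0.0254), 0.23 ± 0.18 with B. chinense (edgeR adjusted p = 0.697) and 0.73 ± 0.18 with P. umbellatus (edgeR adjusted p = 0.00927). The P. chinensis call was lost without any 1 of the control or P. chinensis replicates (edgeR adjusted p = 0.0647 to 0.0812). The P. umbellatus call was lost with a fit of the compared groups alone (0.70; edgeR adjusted p = 0.069). Its log2 fold change ranged from 0.42 to 0.86 over the settings that kept every library. The KRT10 transcript has 52.0% GC, and the P. umbellatus values of Huh7 moved with GC content, as described below.

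KRT80 was near the detection limit in Huh7, with 20, 13 and 19 counts in control, 27, 39 and 20 with P. chinensis, 3, 3 and 7 for B. chinense, and 10, 0 and 7 with P. umbellatus. In CPM the P. chinensis libraries lay above and the B. chinense libraries below control. None of the 3 comparisons passed (log2 fold changes 0.62 ± 0.46, -0.91 ± 0.53 and -0.34 ± 0.53; edgeR adjusted p = 0.392, 0.545 and 0.649). Against the other 2 herbs P. chinensis gave 1.24 ± 0.42 (edgeR adjusted p = 0.0542, and 0.0242 or 0.0227 without P. umbellatus replicate 1 or 2). The untested members reached at most 3 counts per library for KRT7, 5 for KRT15 and 5 for KRT81, while KRT86 had 0 counts in every Huh7 library.

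The P. umbellatus values of Huh7 moved with the base composition of genes. In each Huh7 library, the deviation of genes from the mean of the line's other libraries was ranked against their GC content. The correlation was -0.46, -0.75 and -0.37 in the P. umbellatus libraries against 0.26 to 0.40 in the other 9. The mean used for those 9 includes the P. umbellatus libraries, so their values are not independent of the shift. With a correction for GC content and length, the P. umbellatus log2 fold changes were 0.10 for KRT8 (edgeR adjusted p = 0.253), 0.40 for KRT18 (edgeR adjusted p = 0.00659) and 0.50 for KRT19 (edgeR adjusted p = 0.00154), each of the opposite sign. In the comparison of P. chinensis with the other 2 herbs, the correction took KRT18 to 0.12 (edgeR adjusted p = 0.261).

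**Figure D4:**
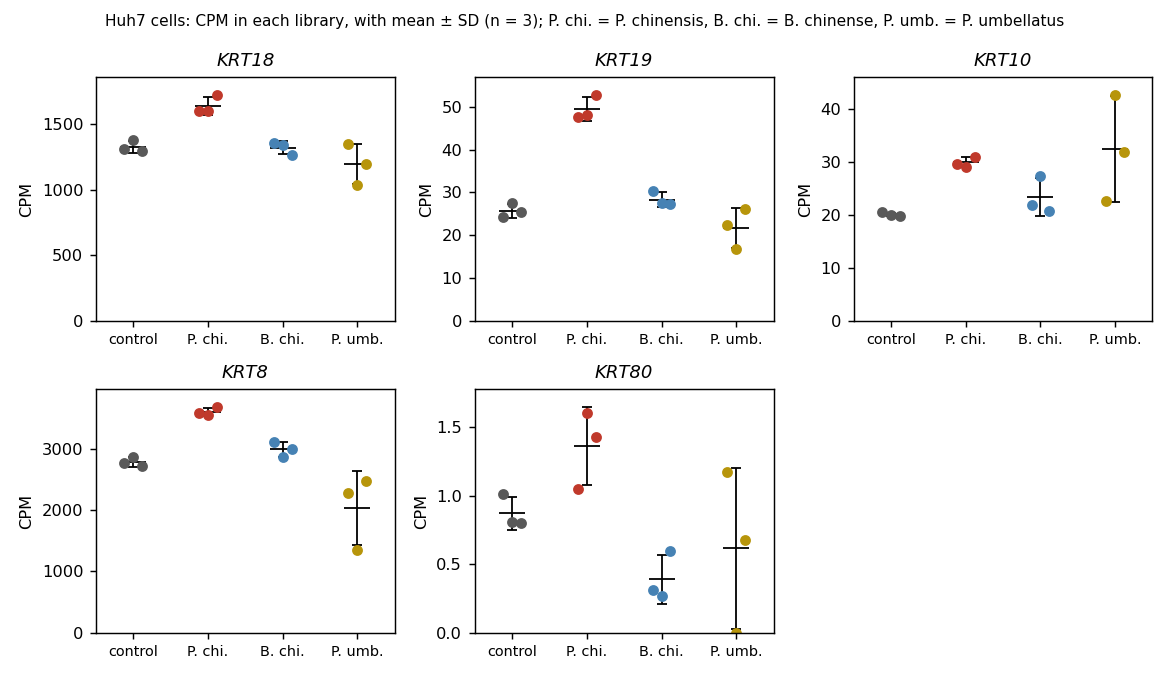
CPM of the 5 keratins tested in Huh7 in each library (points) with the mean and SD of 3 libraries (black bars), on linear axes that start at 0. P. chinensis libraries are above control in every panel, though KRT8 and KRT80 did not pass the edgeR test. The share of all genes separated in this way was not computed. P. umbellatus replicate 2 is the lowest point for KRT8 and the highest for KRT10.

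The response of the 2 lines to the same herb was compared by an interaction term for the 5 keratins tested in both. With P. chinensis, KRT19 rose more in A549 by 0.70 ± 0.18 on the log2 scale (edgeR adjusted p = 0.00822), and the KRT18 response was lower in A549 by a log2 difference of -0.57 ± 0.10 (edgeR adjusted p = 0.000369), among 10.3% of genes with a higher and 9.30% with a lower response. KRT18 thus fell in A549 and rose in Huh7. With B. chinense the KRT19 response was higher in A549 by 1.37 ± 0.19 (edgeR adjusted p = 3.08e-05), where 5.80% of genes were higher and 5.80% lower. With P. umbellatus it was higher by 1.74 ± 0.19 (edgeR adjusted p = 1.04e-06), and by 1.06 with the GC and length correction. The KRT10 response differed by -0.66 ± 0.23 (edgeR adjusted p = 0.0277), where 19.1% of genes were higher and 15.3% lower. The KRT10 difference was lost without A549 control replicate 1 or 2, A549 P. umbellatus replicate 1 or Huh7 P. umbellatus replicate 2 (edgeR adjusted p = 0.0522 to 0.0726) and with limma (-0.35; adjusted p = 0.193). The KRT18 difference with P. umbellatus did not pass (-0.13 ± 0.10; edgeR adjusted p = 0.371), and passed with the GC and length correction (-0.60; edgeR adjusted p = 0.000177), with limma (-0.25; adjusted p = 0.0279) and without Huh7 P. umbellatus replicate 2 (-0.26; edgeR adjusted p = 0.0273). The P. chinensis differences of KRT8 (-0.46 ± 0.18; edgeR adjusted p = 0.0755) and KRT10 (-0.58 ± 0.22; edgeR adjusted p = 0.0753) did not pass, and both passed without Huh7 P. umbellatus replicate 1 (edgeR adjusted p = 0.0399 and 0.021) or 2 (edgeR adjusted p = 9.17e-06 and 0.0137). KRT8 also passed without replicate 3 of that group (edgeR adjusted p = 0.0229) and KRT10 without A549 P. chinensis replicate 3 (edgeR adjusted p = 0.0152).

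**Figure D5:**
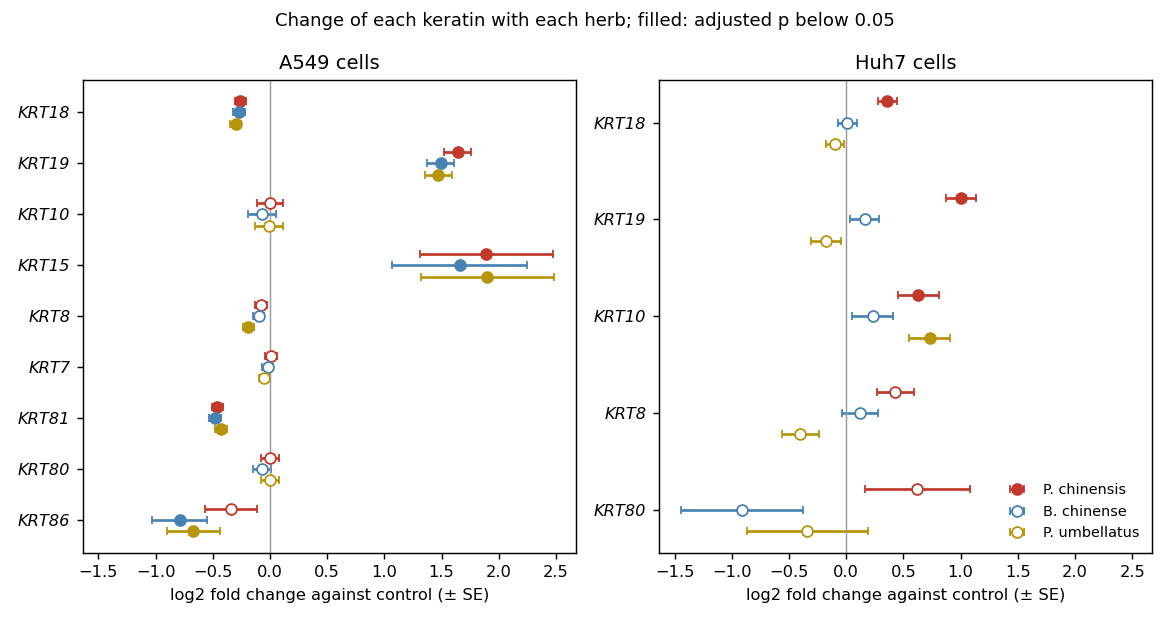
Log2 fold change against control, with its SE, of each keratin tested in A549 (left) and Huh7 (right) for P. chinensis (red), B. chinense (blue) and P. umbellatus (yellow); filled points have an edgeR adjusted p below 0.05. KRT19 is filled and above 0 for all 3 herbs in A549, and in Huh7 for P. chinensis alone.

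The balance between partner types was compared as the ratio of summed type I to summed type II keratins per kb. In A549 the ratio was 0.348 ± 0.0175 in control and 0.336 ± 0.0157, 0.337 ± 0.0123 and 0.337 ± 0.0198 in the 3 herb groups, ordered as above, so type II transcripts were in excess in every group. In Huh7 it was 0.62 ± 0.00595 in control, 0.6 ± 0.015 with P. chinensis and 0.577 ± 0.0305 with B. chinense. With P. umbellatus it was 0.808 ± 0.195, and the log2 ratio of its libraries was -0.38, 0.03 and -0.66. The 2-sided exact permutation p of the 6 comparisons ranged from 0.1 to 0.5 (adjusted 0.3 to 0.5), and 3 libraries against 3 cannot give a p below 0.1.

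Across the 12 libraries of a line, keratins followed partly different genes. The correlations given here, on log2 CPM, describe groups that share a line and controls. Those of Huh7 include the P. umbellatus libraries, whose values moved with GC content, and no correction was made. How far this shaped the Huh7 correlations was not tested. In A549, KRT19 was opposite to KRT81 (r = -0.93), while KRT18 went with KRT81 (r = 0.86) and KRT8 with KRT18 (r = 0.77). In Huh7, KRT18 and KRT19 went together (r = 0.94), as did KRT8 and KRT18 (r = 0.85). Among 10857 genes, the pattern most like KRT19 in A549 was that of PHLDA3, a p53 target (r = 0.991), then LGALS3, which encodes galectin-3 (r = 0.987). For KRT81 they were PXMP2 (r = 0.972) and PARP2 (r = 0.970), and for KRT18 HNRNPA2B1 and INSL4 (both r = 0.959). In Huh7, among 11251 genes, KRT19 was most like TAGLN (r = 0.987) and JUNB (r = 0.979), KRT8 most like KDM6B (r = 0.994) and FRMD8 (r = 0.992), and KRT18 most like EZR (r = 0.975) and the keratin linker PPL (r = 0.961).

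Gene lists around the keratins are described by counts of genes past the test, to be read against the shares over all genes. In A549 these were 15.8% higher and 17.1% lower with P. chinensis, 13.1% and 15.0% for B. chinense, and 13.4% and 14.8% with P. umbellatus (median log2 fold changes 0.01, 0.00 and -0.01). In Huh7 they were 10.5% and 10.5%, 0.519% and 0.757%, and 19.3% and 17.8% (medians 0.01, 0.00 and 0.03). List values below follow the same order of herbs. The P. umbellatus values of Huh7 are without the GC and length correction, which took the changed genes of that comparison from 5138 to 2676. The lists were not examined with it.

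Genes that anchor keratins to junctions went both ways in A549. Of 16 desmosome and filament linker genes tested, P. chinensis raised 8 and lowered 3, B. chinense raised 7 and lowered 3, and P. umbellatus raised 7 and lowered 2 (median log2 fold changes 0.26, 0.22 and 0.24). EPPK1, a plakin at 0 to 6.6 CPM in A549, rose by 2.61 ± 0.52 on the log2 scale with P. chinensis (edgeR adjusted p = 0.0013), and gave 1.42 ± 0.52 and 0.85 ± 0.52 with the other herbs (edgeR adjusted p = 0.0571 and 0.253). DSC3, a desmosomal cadherin, rose by 1.31 ± 0.12, 1.10 ± 0.13 and 1.12 ± 0.12 on the log2 scale (edgeR adjusted p = 1.56e-06, 1.51e-05 and 1.03e-05). The plakin PPL rose by 0.93 ± 0.15, 0.83 ± 0.16 and 0.95 ± 0.15 (edgeR adjusted p = 0.000319, 0.00111 and 0.000317). DSP, the plakin that ties keratin to the desmosome, fell, with log2 fold changes of -0.23 ± 0.06, -0.21 ± 0.06 and -0.22 ± 0.06 (edgeR adjusted p = 0.00598, 0.0141 and 0.0114). In Huh7, 17 were tested: P. chinensis raised 4 and lowered 0, B. chinense changed 0, and P. umbellatus raised 5 and lowered 4 (medians 0.17, 0.02 and 0.14). PPL (0.79 ± 0.16; edgeR adjusted p = 0.00402) and the plakophilin PKP3, at 1.95 to 7.72 CPM across Huh7 (0.92 ± 0.24; edgeR adjusted p = 0.0154), were among those raised by P. chinensis.

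Other intermediate filament genes gave 4 higher and 3 lower of 10 with P. chinensis in A549, and 3 higher and 3 lower with each of the other herbs (medians 0.22, 0.08 and 0.18). NEFL, a neurofilament subunit at 1.96 to 13.3 CPM across A549, rose by 1.89 ± 0.26, 1.39 ± 0.27 and 1.27 ± 0.26 (edgeR adjusted p = 6.28e-05, 0.00127 and 0.00215). NES (nestin) fell from a low level (1.67 to 7.75 CPM across A549), with log2 fold changes of -1.22 ± 0.28, -1.23 ± 0.29 and -1.07 ± 0.28 (edgeR adjusted p = 0.004, 0.00498 and 0.00973). LMNB1, a lamin of the nuclear envelope, fell in A549 with each herb (log2 fold changes -1.29 ± 0.07, -1.01 ± 0.07 and -0.94 ± 0.07; edgeR adjusted p = 7.26e-09, 1.59e-07 and 2.26e-07). Vimentin (VIM), the mesenchymal filament protein, rose by 0.23 ± 0.04 with P. chinensis (edgeR adjusted p = 0.0002). In Huh7, 2 of 8 were higher and 3 lower with P. chinensis, 0 changed for B. chinense, and 1 was higher and 4 lower with P. umbellatus (medians 0.04, -0.09 and -0.39). VIM rose by 0.60 ± 0.06 with P. chinensis in Huh7 (edgeR adjusted p = 1.83e-05). Of 11 keratin binding and modifying genes in A549, 2 were higher and 0 lower with each herb (medians 0.23, -0.06 and 0.09), and SFN (14-3-3 sigma), a keratin-binding adaptor, rose by 0.77 ± 0.08 with P. chinensis (edgeR adjusted p = 6.77e-06). In Huh7, of 10 tested, 2 were higher and 1 lower with P. chinensis, 0 changed for B. chinense, and 1 was higher and 3 lower with P. umbellatus (medians -0.04, -0.12 and -0.08). SFN fell there with P. chinensis (-0.50 ± 0.13; edgeR adjusted p = 0.016).

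Of 9 epithelial transcription factors in A549, P. chinensis raised 2 and lowered 4, and the other herbs raised 2 and lowered 2 each (medians -0.22, -0.02 and -0.13). TP63, the p53 relative that marks basal epithelium, fell with each herb from a low level (0.865 to 4.85 CPM across A549), with log2 fold changes of -1.15 ± 0.38, -1.28 ± 0.39 and -1.34 ± 0.38 (edgeR adjusted p = 0.0336, 0.0254 and 0.0172). GRHL3, a factor of epidermal differentiation at 0.577 to 6.83 CPM across A549, rose by 1.78 ± 0.37, 1.95 ± 0.37 and 1.65 ± 0.37 (edgeR adjusted p = 0.00191, 0.00129 and 0.0037). KLF4, an epithelial differentiation factor, rose by 0.72 ± 0.21 with P. chinensis (edgeR adjusted p = 0.0179) and KLF5 fell (-0.42 ± 0.06; edgeR adjusted p = 4.78e-05). In Huh7, 2 of 8 were higher and 1 lower with P. chinensis, 0 changed for B. chinense, and 2 were higher and 2 lower with P. umbellatus (medians 0.37, 0.10 and 0.03). KLF4 rose by 1.5 ± 0.22 (edgeR adjusted p = 0.000538) and ELF3, an epithelial ETS factor, by 1.52 ± 0.19 (edgeR adjusted p = 0.000133) with P. chinensis. Of 9 epithelial adhesion genes in A549, the herbs raised 3, 2 and 3 and lowered 1, 1 and 2 (medians 0.22, 0.01 and 0.15), with CDH1 (E-cadherin) lower with P. chinensis (-1.0 ± 0.12; edgeR adjusted p = 2.25e-05) and the claudin CLDN4, at 0.981 to 6.8 CPM across A549, higher (1.72 ± 0.31; edgeR adjusted p = 0.000613). In Huh7 they raised 1, 0 and 2 of 9 and lowered 1, 1 and 3 (medians -0.04, -0.08 and -0.19), and P. chinensis raised CLDN4 by 1.68 ± 0.26 (edgeR adjusted p = 0.000804). Of the mesenchymal genes, 3, 1 and 1 of 8 were higher and 0 lower in A549 (medians 0.19, 0.03 and 0.04). In Huh7, 5, 0 and 4 of 6 were higher and 1, 0 and 0 lower (medians 0.63, 0.14 and 0.36).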

How the data were processed

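RNA of A549 and Huh7 cells, control or treated with 1 of 3 herb extracts, was sequenced as stranded, ribosomal RNA-depleted libraries (24 libraries, 3 per group). The authors checked reads with FastQC, quantified them with kallisto against Ensembl cDNA of GRCh38.p13, and deposited estimated counts per protein-coding gene (expected counts, given as whole numbers, without normalization), keeping genes above a mean of 5. The kallisto version and strand option are not given in the sources used here. The authors used DESeq2 for their tests. Samples were grouped by their labels.

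Here edgeR 4.0.16 (quasi-likelihood test, TMM, R 4.3.3) was fitted over all 12 libraries of a line, on genes with a mean above 5 counts in that line. Interactions and the comparison of control groups were fitted over all 24 libraries, on the 12924 genes above it in both lines. Benjamini-Hochberg values were taken over all genes tested, at a threshold of 0.05. Totals of 6803648 to 24345364 counts set the precision, and floors of 3 counts cover counting error only. Transcript lengths, exons and 31-base words came from GENCODE on GRCh38, which is not the authors' annotation, and words were counted on both strands. Single values were compared by an exact permutation test (SciPy 1.17.1). The members, the gene lists and the tests were chosen with earlier results of these data known. The genes named from a list were examples among the up to 3 per direction past the threshold with the largest log2 fold change in a comparison, and named like genes were the best 2 by correlation. The scripts were tested on simulated data.

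Alternatives were DESeq2 1.42.0, limma 3.58.1 voom with quality weights, RLE size factors, no filter, a minimum mean of 20 counts, a replicate block, a GC and length correction, a fit of the compared groups alone, and leaving out each library. Same-numbered libraries of a line did not deviate together (correlations -0.0619 to 0.0515 in A549 and -0.0318 to 0.0361 in Huh7, 0 of 18 over 0.1 in each line), so numbers were not taken as pairs. No libraries were identical. Some items are not reported here.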

Additional observations from a re-analysis of the deposited data

Results flagged for a closer look

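For 5 results the test of the difference between the lines' responses to the same herb passed the threshold. KRT18 with P. chinensis differed by -0.57 on the log2 scale (A549 minus Huh7; edgeR adjusted p = 0.000369), with a fall in A549 and a rise in Huh7. KRT19 differed by 0.70 with P. chinensis (edgeR adjusted p = 0.00822), by 1.37 with B. chinense (edgeR adjusted p = 3.08e-05) and by 1.74 with P. umbellatus (edgeR adjusted p = 1.04e-06; 1.06 with the GC and length correction), each time with the larger response in A549. KRT10 differed by -0.66 with P. umbellatus (edgeR adjusted p = 0.0277), and by -0.47 without P. umbellatus replicate 2 of Huh7 (edgeR adjusted p = 0.0726).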

How the results depend on the processing

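Of the member results past the threshold, 249 of 255 values under other settings and 467 of 504 with a library left out stayed past it in the same direction, and none reversed. The 6 others were KRT15 with B. chinense in A549 (1.76 with the replicate block, edgeR adjusted p = 0.057; 1.64 with the compared groups alone), KRT86 with P. umbellatus in A549 (-0.65) and KRT10 with P. umbellatus in Huh7 (0.70) with the compared groups alone, KRT18 against the other herbs in Huh7 (0.12 with the GC and length correction) and the KRT10 response difference for P. umbellatus (-0.35 with limma). Of results not past it, 22 of 345 passed and 24 reversed under other settings.

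Reversals lay near 0 except with the GC and length correction. In A549, KRT10 gave -0.05 (limma) and -0.01 (replicate block) with P. chinensis, and KRT80 gave 0.00 (replicate block) and -0.02 (GC and length). With P. umbellatus, KRT10 and KRT80 each gave 0.00 with DESeq2 and RLE factors, and 0.01 without a filter and with the compared groups alone. There KRT10 also gave 0.01 with the GC and length correction, and KRT80 gave 0.00 at a mean of 20 counts and 0.01 with limma. Against the other herbs, KRT10 gave -0.01 and KRT81 0.00 with limma, and KRT81 gave 0.02 with the GC and length correction. In Huh7 with P. umbellatus, limma gave 0.02 for KRT18 and 0.08 for KRT80, and the GC and length correction gave 0.10 for KRT8, 0.40 for KRT18, 0.50 for KRT19 and -0.20 for the KRT8 response difference.

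Counts of changed genes moved most in Huh7. P. chinensis changed 2901 genes, against 6325 with limma, 4462 with the GC and length correction and 5860 with the compared groups alone. B. chinense changed 177, against 515 with DESeq2, 1229 with limma, 116 with the replicate block, 856 with GC and length and 1122 with the groups alone (1 keratin against 0). P. umbellatus changed 5138, against 2676 with GC and length and 1227 with the groups alone. Its keratin count was 1, against 2 with DESeq2, 2 with limma, 3 with GC and length and 0 with the groups alone. P. chinensis against the other herbs changed 3018, against 4794 with limma (5 keratins against 3) and 1923 with the groups alone. For the response differences, P. chinensis gave 2529, against 4017 with limma and 3881 with the groups alone, and 4 keratins with DESeq2, limma and the groups alone against 2. B. chinense gave 1499, against 2483 (limma), 2320 (GC and length) and 2355 (groups alone), with 2, 2 and 3 keratins against 1. Without a filter all 9 keratins differed between the control groups. Of these, KRT7, KRT15, KRT81 and KRT86 passed the minimum in A549 alone, so their difference followed from that choice. The share over all genes without a filter is not given here. The summed keratin level was 4021 CPM with RLE factors for Huh7 control and 5622 CPM without TMM for Huh7 P. chinensis. The cause was not tested.

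With 1 library left out, changed genes in Huh7 ranged from 1839 to 4845 (P. chinensis), 51 to 911 (B. chinense), 3249 to 6362 (P. umbellatus) and 1415 to 4509 (P. chinensis against the other herbs), from 117 to 514 for the last comparison in A549, and from 1129 to 2417 for the B. chinense response difference. Keratin counts ranged from 3 to 5 with B. chinense in A549 and from 1 to 3 with P. umbellatus in Huh7. Those of the response differences ranged from 2 to 4 (P. chinensis), 1 to 3 (B. chinense) and 1 to 2 (P. umbellatus). Of 648 values not past the threshold, 26 reversed. In A549 against control they ranged from -0.01 to 0.04 (KRT7), -0.20 to 0.11 (KRT10) and -0.05 to 0.07 (KRT80) with P. chinensis, from -0.18 to 0.00 with B. chinense (KRT80), and from -0.08 to 0.00 (KRT7), -0.06 to 0.03 (KRT10) and -0.05 to 0.07 (KRT80) with P. umbellatus. Against the other herbs they ranged from -0.16 to 0.15 (KRT10), -0.25 to 0.33 (KRT15), 0.00 to 0.07 (KRT18) and -0.05 to 0.05 (KRT81). In Huh7 they ranged from 0.00 to 0.04 for KRT18 with B. chinense and -0.94 to 0.10 for KRT80 with P. umbellatus, and from -0.05 to 0.88 for its response difference.

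The replicate block, which treats equal replicate numbers as shared, changed no other keratin call than KRT15 with B. chinense. Low counts limit KRT15, KRT86 and, in Huh7, KRT80.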

Other observations

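The table held 2 further keratin genes. KRT23, a type I keratin of liver and gut epithelium, had 13, 17 and 7 counts in control Huh7 libraries, 7, 21 and 2 with P. chinensis, 6, 0 and 13 for B. chinense, and 39, 25 and 35 with P. umbellatus. It rose with P. umbellatus by 2.38 ± 0.65 on the log2 scale (edgeR adjusted p = 0.0146), and all 3 of these libraries lay above every control library in CPM. These are few counts, in the libraries whose values moved with GC content. KRT23 was not examined with the GC and length correction, under other settings or with a library left out. In A549 it had at most 2 counts in any library. KRT222, a short keratin-like gene, had 15 to 21 counts in control A549 libraries and 50 to 78 in control Huh7 libraries, and it passed the test in none of the 12 comparisons (for example -0.88 ± 0.85 with P. chinensis in A549; edgeR adjusted p = 0.473).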
